A study of Mus musculus with 284 samples.

Results

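Strongly basal tumour propagating cells were the 25% of cells in each mouse with the highest basal score. They were chosen by that score, which is the mean log2(CPM + 1) of Krt5, Krt15, Itga6, Itgb4, Itga3, Itgb1, Col17a1 and Trp63, where CPM are a gene's counts relative to the cell's total. The rule gave 71 strongly basal cells among 284, and the other 213 cells of the same mice were the comparison. Tumour propagating cells are the cells of a squamous tumour that can regrow it. The 284 cells came from skin tumours of 4 C57BL/6 mice that carried ROSA26-LSL-eYFP and a Keratin14-Cre transgene, so that cells of a keratin 14-expressing lineage carry YFP. All 4 mice received DMBA once at 8 weeks of age and then repeated TPA for more than 20 weeks. Mice KO1 and KO3 are labelled Sirt6-/- and gave 73 and 54 cells, and mice WT1 and WT2 are labelled wild type and gave 69 and 88 cells. Tumours were dissociated with trypsin, live cells were sorted by CD34, CD49f and YFP, and single cells were read with a modified Smart-seq2 protocol, which copies whole polyadenylated transcripts and attaches no molecular identifiers. CD49f is the protein of Itga6, so 1 marker of the score also served in the sort.

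In stratified skin, basal keratinocytes sit on the basement membrane and divide, and their daughters detach, move up and differentiate. They are anchored by hemidesmosomes, in which integrin alpha-6 beta-4 (Itga6, Itgb4) and collagen XVII (Col17a1) bind laminin-332 outside the cell and plectin and dystonin inside it. Integrin alpha-3 beta-1 (Itga3, Itgb1) binds laminin at focal adhesions, Krt5 and Krt15 are keratins of the basal layer, and Trp63 encodes p63, the transcription factor that maintains the basal state.

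Of the strongly basal cells, 18 came from KO1, 14 from KO3, 17 from WT1 and 22 from WT2. The other cells numbered 55, 40, 52 and 66 in the same mice. Totals ran between 524000 and 1684500 counts per cell, and no cell was removed. Each plate held cells of 1 genotype, so plate and genotype cannot be told apart, and a minority of cells sat on a second plate in KO1 (8 cells, of which 2 were strongly basal) and in WT2 (7 cells, of which 3 were strongly basal). The transcript of Sirt6, the deacetylase that the labels name as deleted, was present in every mouse. In strongly basal cells it was at 25.5 and 16.2 CPM in KO1 and KO3, against 17.8 and 22.0 CPM in WT1 and WT2. The labels do not say which exons the deletion removes, so these levels check neither label, and the genotypes are given below as labelled.

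The score had a long lower tail. Its median in strongly basal cells was 9.63 in KO1, 9.25 in KO3, 9.99 in WT1 and 10.13 in WT2, against 7.94, 6.38, 8.40 and 8.91 in the other cells of those mice. The last cells inside the threshold scored 9.30, 8.73, 9.68 and 9.94, and the first cells outside scored 9.24, 8.66, 9.59 and 9.90, in KO1, KO3, WT1 and WT2. The threshold therefore fell within a continuous range, lowest in KO3 and highest in WT2. Cells with a score under 6 made up 13.7% of KO1, 33.3% of KO3, 8.70% of WT1 and 12.5% of WT2.

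**Figure D1:**
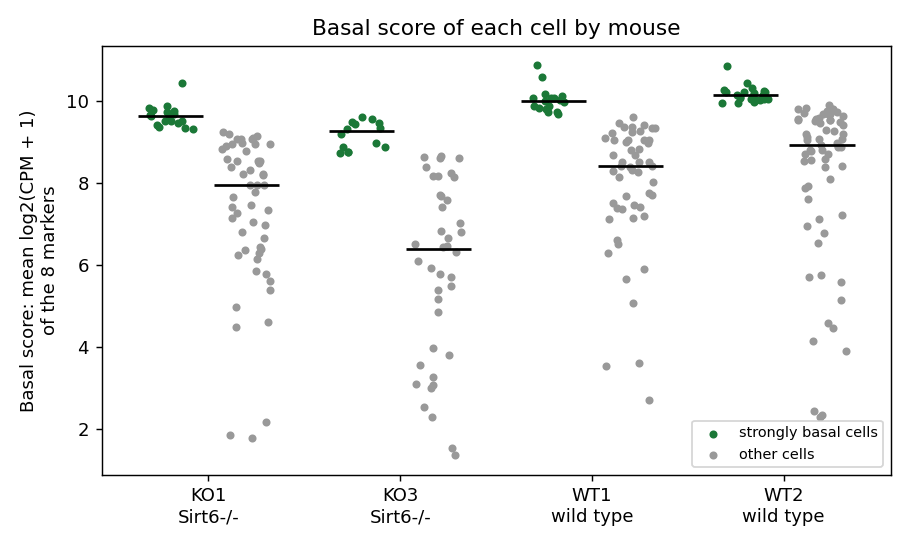
Basal score of every cell (vertical axis, mean log2(CPM + 1) of the 8 markers) in mice KO1, KO3, WT1 and WT2, with strongly basal cells in green, other cells in grey and lines at the medians. Strongly basal cells have medians between 9.25 and 10.13, and the other cells trail down to 1.36 in KO3.

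The 8 markers chose the cells, so their levels are given as a description and without a test. Krt15 had the largest difference in KO1, KO3 and WT1, and Itga3 and Itgb1 exceeded it in WT2. Summed over strongly basal cells it had 2360.3, 1366, 4419 and 1949.8 scaled CPM in KO1, KO3, WT1 and WT2, against 403, 65.6, 561 and 974 in the other cells (scaled CPM are summed counts relative to the TMM-scaled total of the sum). Counts of Krt15 were present in 100% of strongly basal cells of KO1, WT1 and WT2 and in 78.6% of those of KO3, against 54.5%, 36.5%, 77.3% and 20.0% of other cells in the same mice. Krt5 separated them least, with 5062, 5095, 6833 and 9572 scaled CPM in strongly basal cells of KO1, KO3, WT1 and WT2, against 4869.8, 3438, 5816 and 8485 in other cells. Every cell had Krt5 counts, and the ranges of both sets overlapped across mice. Col17a1 had 1862, 1785, 2509 and 4350.1 scaled CPM in strongly basal cells, against 970.4, 498, 1343 and 2786 in other cells, and Itgb4 had 928, 1099, 1101 and 1643, against 531, 303, 800.5 and 1144. Trp63 had 545, 406, 782 and 659 scaled CPM in strongly basal cells of KO1, KO3, WT1 and WT2, and 331, 193, 381 and 429.8 in other cells.

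The markers moved together to different degrees. Over the cells of 1 mouse the mean Pearson correlation of the 28 marker pairs was 0.397 in KO1 (73 cells), 0.506 in KO3 (54 cells), 0.372 in WT1 (69 cells) and 0.458 in WT2 (88 cells). The cells of a mouse share plates and vary in depth, so these values describe the data and carry no test. The 2 hemidesmosome components Itgb4 and Col17a1 were the most correlated pair in every mouse, at 0.670, 0.842, 0.785 and 0.759 in KO1, KO3, WT1 and WT2. The weakest pairs involved Krt15 in 3 mice, with values of -0.01 for Krt5 and Krt15 in KO1, 0.06 for Krt15 and Itga6 in KO3, and -0.03 for Krt15 and Itga3 in WT1. When the top 25% of cells was chosen with 1 marker left out of the score, that marker's mean log2(CPM + 1) was higher in the chosen cells in all 4 mice for 7 of the markers, and in 3 mice for Itga6, which was 0.22 lower in the chosen cells of WT1. The largest such differences were those of Itga3 (3.94), Itgb4 (3.88) and Col17a1 (3.73), all in KO3. With the 8 markers weighted equally, 60 of the 71 cells stayed in the top 25%.

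Depth was measured in both sets. Median totals were 1095441, 1338565, 1178564 and 1048548 counts in strongly basal cells of KO1, KO3, WT1 and WT2, and 1116969, 1229665, 1151641 and 1048412 in other cells (exact sign-flip permutation test over the 4 mice, two-sided p = 0.375). After thinning every cell to 500000 counts, the median number of genes detected was 5514.5, 6165.5, 6031 and 5343.5 in strongly basal cells, against 6021, 6154.5, 6644 and 5590.5 in other cells (exact permutation p = 0.25). Without thinning it was lower in strongly basal cells of all 4 mice, with a mean difference of -371.5 genes (the exact permutation test gave the smallest p that 4 mice allow, 1 in 8). Ribosomal RNA took a median 5.94%, 4.13%, 5.66% and 6.36% of counts in strongly basal cells and 5.66%, 4.17%, 5.38% and 6.03% in other cells. The 8 markers together took only 1.17% to 1.83% of the counts of a median strongly basal cell, against 0.446% to 1.49% of those of a median other cell.

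To compare the rest of the transcriptome, rounded counts were summed over strongly basal cells and over other cells of each mouse, and the 8 sums were tested with edgeR, with mouse as a block. An adjusted p is a Benjamini-Hochberg value over all 13827 genes tested, and 0.05 was the threshold. No gene was called higher in strongly basal cells (0.0% of genes tested) and 6 were called lower (0.0434%). At an unadjusted p under 0.05, 507 genes were higher (3.67%) and 867 lower (6.27%), and 1042 genes were higher in all 4 mice (7.54%) and 1878 lower in all 4 (13.6%). The median log2 difference of all genes tested was -0.13. The number of calls differed between tools: DESeq2 on the same sums, with its own size factors and 13290 genes tested, called 327 genes higher and 543 lower, and limma on the mean log2(CPM + 1) per cell, in which every cell weighs the same, called 34 higher and 50 lower. Without KO1 or without WT1 edgeR called 1 gene lower, and without KO3 or without WT2 it called none. The gene called without WT1 was Fabp5, 1 of the 6, and the gene called without KO1 was not among them.

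The 6 genes that fell in strongly basal cells were Lypd3, Ly6d, Calm4, Fabp5, Nectin4 and Trex2. Lypd3, which encodes a GPI-anchored protein of suprabasal and wound keratinocytes, lies on chromosome 7 (24636550 to 24641118, plus strand, GRCm38). It had 126, 288, 159 and 114 scaled CPM in strongly basal cells of KO1, KO3, WT1 and WT2, against 593, 1433, 887 and 525 in other cells. Every strongly basal sum was below every other-cell sum, and the log2 difference was -2.31 (SE 0.09, adjusted p = 0.0085). Ly6d, a related surface protein of stratified epithelium (chromosome 15, 74762056 to 74763620, minus strand), had 101, 194, 53.8 and 41.4 scaled CPM in strongly basal cells, against 768, 1801, 615 and 561 in other cells. The groups did not overlap, and the log2 difference was -3.35 (SE 0.17, adjusted p = 0.0169). Counts of Ly6d were present in 35 of 71 strongly basal cells (49.3%, exact binomial 95% interval 37.2 to 61.4%), against 168 of 213 other cells (78.9%, 72.8 to 84.2%). Intervals of this kind cover counting error only.

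Calm4, a calmodulin-like protein of differentiating skin cells (chromosome 13, 3837757 to 3838673, plus strand), had 118, 166, 59.6 and 102 scaled CPM in strongly basal cells of KO1, KO3, WT1 and WT2, against 1118, 1149, 352 and 1077 in other cells. Its strongly basal values all lay below its other-cell values, and it fell by 3.00 on the log2 scale (SE 0.17, adjusted p = 0.0199). Fabp5, the epidermal fatty acid-binding protein (chromosome 3, 10012548 to 10016607, plus strand), had 578, 772, 648 and 299 scaled CPM, against 3972, 5598, 2723 and 2333 in other cells. It too showed no overlap and fell by 2.67 (SE 0.17, adjusted p = 0.0243), although 67 of 71 strongly basal cells still had counts of it. Nectin4, an adhesion molecule of cell junctions (chromosome 1, 171370099 to 171388598, plus strand), was almost absent from strongly basal cells. It had 2 counts in all strongly basal cells together, in 1 cell of KO1 and 1 cell of KO3, against counts in 82 of 213 other cells at 44.3, 105, 70.2 and 47.6 scaled CPM. Pooled over mice it was 2557-fold lower (counting interval 708 to 21111), a value that rests on those 2 counts. The edgeR test on the 8 sums, which does not measure that fold, gave an adjusted p of 0.0169. Trex2, a DNA exonuclease of differentiating keratinocytes (chromosome X, 73433705 to 73435344, minus strand), had 1 count in strongly basal cells and 27.8, 76.0, 39.3 and 3.69 scaled CPM in the other cells of KO1, KO3, WT1 and WT2. Pooled over mice Trex2 was 2669.6-fold lower (counting interval 479 to 105444), from that 1 count, and the edgeR test gave an adjusted p of 0.0243. In WT2 its counts came from 3 of 66 other cells. It is named because it was 1 of the 6 calls, although it lies under the floor of 20 scaled CPM used for named genes. Nectin4 and Trex2 passed the filter on low counts only through the other cells. A lower level in strongly basal cells was therefore the only result open to these 2 of the 6 calls.

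**Figure D2:**
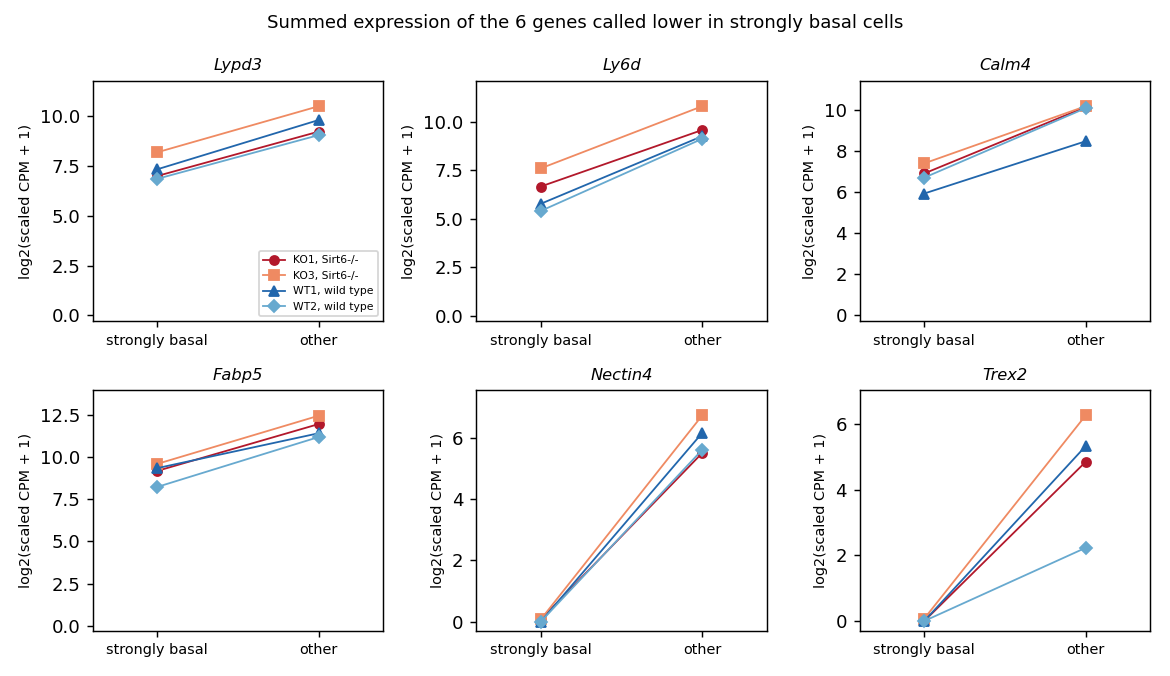
Summed expression (log2 of scaled CPM + 1) of Lypd3, Ly6d, Calm4, Fabp5, Nectin4 and Trex2 in strongly basal cells (left) and other cells (right), with 1 line per mouse. Every line rises to the right, and Nectin4 and Trex2 lie at or next to 0 in strongly basal cells of all 4 mice.

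The calls changed with the comparison cells, as they did with a mouse left out, and the cause was not tested. When the comparison was limited to other cells outside the lowest 25% by score, a setting chosen after seeing the data, no gene passed in edgeR in either direction, although 323 genes were higher and 464 lower at an unadjusted p under 0.05. The log2 difference was then -1.09 for Lypd3, -1.82 for Ly6d, -1.69 for Calm4 and -1.54 for Fabp5. Nectin4 had a fitted difference of -9.59 there, against -11.20 with all other cells, and both rest on its 2 counts in strongly basal cells. Against the lowest 25% alone, 29 genes were called higher and 65 lower. The 5 genes next in order that met the other conditions for naming were also lower in strongly basal cells of all 4 mice without passing the threshold. Sult2b1, which sulphates cholesterol in the cornifying layer, had 7.41, 44.5, 10.8 and 1.74 scaled CPM in strongly basal cells of KO1, KO3, WT1 and WT2, against 150.4, 395, 272 and 49.8 in other cells (adjusted p = 0.064). Crabp2, a retinoic acid carrier, had 70.8, 106, 134 and 35.5, against 277, 551, 385 and 153 (adjusted p = 0.064). The log2 differences of the glutathione transferase Gsta4, the protease Blmh and the differentiation factor Zfp750 were -1.15, -0.87 and -5.05, with adjusted p of 0.101, 0.101 and 0.13. Zfp750 counts were present in 6 of 71 strongly basal cells and in 123 of 213 other cells.

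The suprabasal list as a whole lay low in strongly basal cells. Of 24 listed genes 21 were tested, 20 had a lower log2 difference and 2 of them passed, Ly6d and Calm4. The unadjusted p was under 0.05 for 19 lower genes, against 6.27% of all genes tested, and for no higher gene. Lower in all 4 mice were 17, against 13.6%. The list median was -4.45, against -0.13 for all genes, and 1 gene at 0 counts in strongly basal cells did not move it when set to its bound. The median was -1.93 without the lowest 25% of cells by score and -1.66 with limma on cell means. In each mouse the median on the log2(scaled CPM + 1) scale was -2.87 in KO1, -3.21 in KO3, -2.54 in WT1 and -2.75 in WT2. The early differentiation keratin Krt1 had 0.589, 13.03, 12.8 and 0.0459 scaled CPM in strongly basal cells, against 217, 428, 279 and 1432 in other cells. Its partner Krt10 had 4.27, 3.45, 1.62 and 3.71, against 37.4, 239, 101 and 734, so that no strongly basal value of either keratin reached any other-cell value. Neither passed (adjusted p = 0.303 for Krt1 and 0.212 for Krt10). Spink5, a protease inhibitor of the upper epidermis, had a log2 difference of -3.22 and Krtdap, a secreted differentiation peptide, one of -1.47. Strongly basal cells were not free of the programme: at 500000 counts a median of 5, 7.5, 5 and 4 suprabasal genes was detected in strongly basal cells of KO1, KO3, WT1 and WT2, against 9, 13, 9 and 7 in other cells (the smallest p that the exact permutation test allows, 1 in 8).

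The anchoring machinery outside the score gave mostly positive differences, which did not pass the threshold and did not hold for every list in every mouse. Of the 7 genes listed for the hemidesmosome and laminin-332, all were tested, 6 had a positive log2 difference, none passed, and the list median was 0.67, against -0.13 for all genes. That median was 0.30 without the lowest 25% of cells by score, and lay between 0.33 and 0.92 with 1 mouse left out. On the log2(scaled CPM + 1) scale it was 0.59 in KO1, 1.09 in KO3, 0.02 in WT1 and 0.37 in WT2. Plectin (Plec), which ties hemidesmosomes to keratin filaments, had 694, 431, 786 and 986 scaled CPM in strongly basal cells of KO1, KO3, WT1 and WT2, against 435, 288, 467 and 763 in other cells. It was higher in 4 of 4 mice while the ranges overlapped between mice (log2 difference 0.59, SE 0.09, adjusted p = 0.219). Dystonin (Dst), the second plakin of the hemidesmosome, had 199, 121, 331 and 409, against 132, 56.4, 116 and 336 (0.87, SE 0.22, adjusted p = 0.352). The gain was largest in WT1 and smallest in WT2.

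Laminin-332 chains differed by mouse. Lama3 had 172, 388, 96.7 and 259 scaled CPM in strongly basal cells of KO1, KO3, WT1 and WT2, against 53.9, 64.2, 192 and 119 in other cells. It was higher in strongly basal cells of KO1, KO3 and WT2 and lower in those of WT1 (log2 difference 1.15, SE 0.61, adjusted p = 0.596). Lamb3 had 179.6, 526, 346 and 668, against 206, 134, 340.4 and 352, and was lower in strongly basal cells of KO1 (0.67, SE 0.39, adjusted p = 0.625). The 1 gene of the list with a negative difference was Lad1, the anchoring filament protein ladinin, with 321, 428, 522 and 435 scaled CPM in strongly basal cells and 633, 651, 756 and 473 in other cells (-0.56, SE 0.15, adjusted p = 0.362). It was lower in 4 of 4 mice.

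Of 16 listed basement membrane genes 10 were tested and 8 had a positive difference, with a list median of 0.70. The unadjusted p was under 0.05 for 5 higher genes, against 3.67% of all genes tested. The same 5 were higher in all 4 mice, against 7.54%. None passed, and the median was 0.43 without the lowest 25% of cells and 0.40 with markers weighted equally, but 1.17 with matched other cells. Agrin (Agrn), a heparan sulphate proteoglycan, had 279.8, 170.1, 264 and 296 scaled CPM in strongly basal cells of KO1, KO3, WT1 and WT2, against 116, 42.8, 109 and 238 in other cells. It was present in 69 of 71 strongly basal cells and 133 of 213 other cells (log2 difference 1.22, SE 0.28, adjusted p = 0.3). Col7a1, the collagen of anchoring fibrils, had 113, 88.5, 133 and 237, against 45.2, 15.6, 109 and 137 (1.21, SE 0.38, adjusted p = 0.409). Both were higher in every mouse and overlapped between mice, with the smallest Agrn difference in WT2 and the smallest Col7a1 difference in WT1. Dystroglycan (Dag1), the receptor for agrin and laminin, had 285, 196, 306 and 392, against 194, 129, 202 and 286 (0.55, SE 0.09, adjusted p = 0.219). Perlecan (Hspg2) had a log2 difference of 0.84 and the laminin chain Lama5 one of 0.55. Col4a1, Col4a2, Nid1, Nid2, Fras1 and Frem2 were too low to be tested.

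Of 8 other integrins 6 were tested and 4 had a positive difference, with a list median of 0.41, or 0.01 with markers weighted equally. On the log2(scaled CPM + 1) scale that median was 0.28 in KO1, 1.23 in KO3, 0.40 in WT1 and -0.36 in WT2. The collagen receptor chain Itga2 had 11.8, 27.0, 50.9 and 27.8 scaled CPM in strongly basal cells of KO1, KO3, WT1 and WT2, against 10.4, 7.49, 13.5 and 15.0 in other cells (log2 difference 1.22, SE 0.42, adjusted p = 0.451). The vitronectin receptor chain Itgav had a difference of 0.45 in 4 of 4 mice, and the fibronectin receptor chain Itga5 and Itgb8 had differences of 0.37 and 1.07 that held in 3 of 4 mice. Of 19 focal adhesion genes 17 were tested and 14 had a positive difference, with a median of 0.44. By mouse, on the log2(scaled CPM + 1) scale, the median was 0.68 in KO1, 0.42 in KO3, -0.13 in WT1 and 0.45 in WT2. The unadjusted p was under 0.05 for 5 higher genes, against 3.67% of all genes tested. Higher in all 4 mice were 5, against 7.54%. Lims1 (PINCH1), an adaptor of integrin-linked kinase, had 86.9, 93.3, 129.7 and 76.8 scaled CPM in strongly basal cells, against 64.4, 47.4, 49.6 and 45.9 in other cells. Its ranges did not overlap (0.88, SE 0.20, adjusted p = 0.297). The tensins Tns4 and Tns3 had differences of 0.50 and 1.57 and kindlin-1 (Fermt1), an integrin activator, one of 0.84. Tns3 was the exception by mouse, with 105 scaled CPM in strongly basal cells of WT2 against 110.0 in its other cells. Of 17 actomyosin genes 15 were tested and the median was -0.06. The cytoplasmic actin Actg1 and transgelin-2 (Tagln2) were lower in 4 of 4 mice (-0.38 and -0.35), and the tropomyosin Tpm1 had a difference of 0.40.

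**Figure D3:**
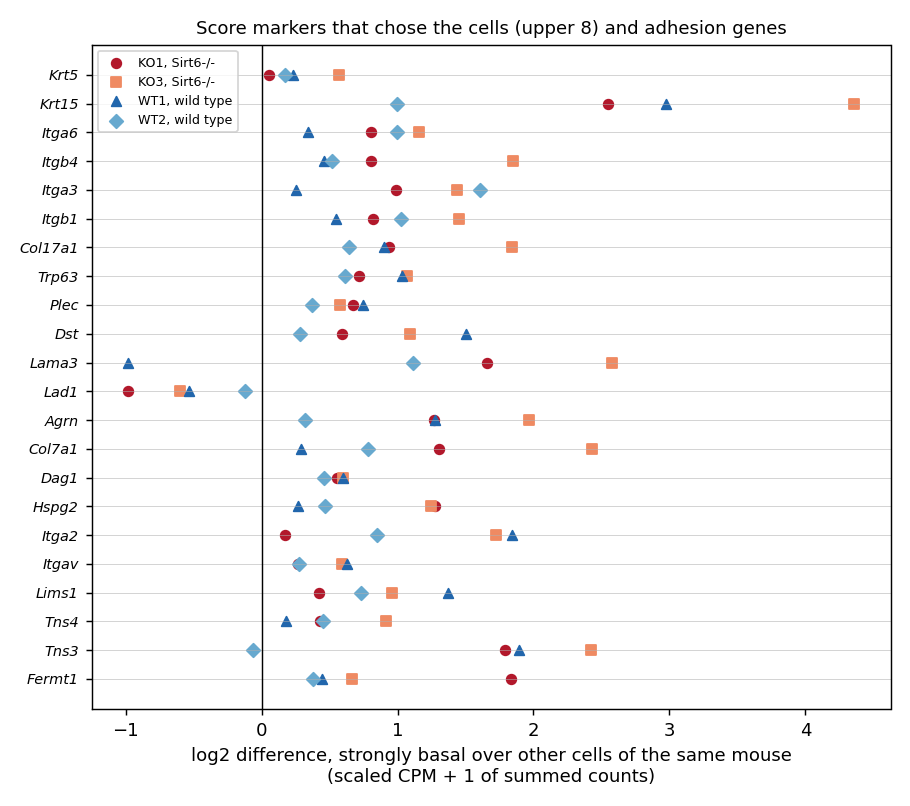
Log2 difference of strongly basal over other cells (horizontal axis, scaled CPM + 1) for the 8 score markers, which chose the cells, and 14 adhesion genes, with 1 symbol per mouse. Krt15 and Lama3 spread widely, Plec and Dag1 lie close together in all 4 mice, Lama3 is negative in WT1 only, and Lad1 is negative in every mouse.

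Several of these genes passed with limma, which was an alternative to the test on sums. With limma on the mean log2(CPM + 1) of cells, Plec, Dst, Agrn, Col7a1 and Tns3 were among the 34 genes called higher, with differences of 0.98, 2.19, 3.20, 2.72 and 2.65, and so were Bcam (1.68), Jag2 (2.72), Dll1 (2.06), Sgk1 (1.49) and Tnc (2.08). That measure gives weight to how many cells have counts of a gene, and the sums to how many reads there are.

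Of 17 basal identity genes 16 were tested, 12 had a positive difference, none passed, and the median was 0.32, or 0.18 without the lowest 25% of cells. Bcam, the laminin alpha-5 receptor also called basal cell adhesion molecule, had 519, 399, 644 and 633 scaled CPM in strongly basal cells of KO1, KO3, WT1 and WT2, against 302, 188, 423 and 375 in other cells. It was higher in 4 of 4 mice, with an overlap between KO3 and WT1 (log2 difference 0.81, SE 0.10, adjusted p = 0.165). The Notch ligand Dll1, which basal cells present to their neighbours, had 116, 47.7, 64.9 and 170.0, against 38.7, 17.9, 40.9 and 56.8 (1.31, SE 0.21, adjusted p = 0.22). The Wnt ligand Wnt10a had a difference of 0.70 and the surface glycoprotein Cd44 one of -0.38, each in 4 of 4 mice. Krt14, the partner of Krt5, had 14239, 23542, 18406 and 33144 scaled CPM in strongly basal cells, against 22624, 28586, 24698 and 30934 in other cells. The basal keratin pair thus differed: Krt14 was lower in strongly basal cells of KO1, KO3 and WT1 and higher in those of WT2 (-0.32, SE 0.13, adjusted p = 0.499).

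The Notch list held genes with opposite signs. Of 9 genes 8 were tested, 4 in each direction, with a median of 0.11. The ligand Jag2 had 161, 111, 203 and 177 scaled CPM in strongly basal cells of KO1, KO3, WT1 and WT2, against 98.3, 68.6, 98.3 and 91.1 in other cells. No strongly basal value reached down to an other-cell value (log2 difference 0.85, SE 0.12, adjusted p = 0.198). Notch3, a receptor that suprabasal cells express and that also stands in the suprabasal list, had 8.24, 0.733, 10.9 and 2.98, against 38.5, 23.2, 28.3 and 25.7. Its groups did not overlap either, and counts were present in 9 of 71 strongly basal cells and 99 of 213 other cells (-2.85, SE 0.70, adjusted p = 0.337). Of 9 genes listed as p63 targets 7 were tested, with a median of -0.58. Zfp750, which acts in differentiation, and the kinase Ripk4 had differences of -5.05 and -0.60, and the growth factor receptor Fgfr2 had 1.08.

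Genes of cell-to-cell junctions had differences of the opposite sign to most anchoring genes. Of 13 desmosome genes 11 were tested and 10 had a negative difference, with a median of -0.86. The unadjusted p was under 0.05 for 8 lower genes, against 6.27% of all genes tested. Lower in all 4 mice were 8, against 13.6%. None passed, and without the lowest 25% of cells by score the median was -0.33, as was the difference of Perp. Perp, a desmosomal membrane protein that p63 induces, had 2412, 2189, 2345 and 2757 scaled CPM in strongly basal cells of KO1, KO3, WT1 and WT2, against 4086, 5076, 3862 and 4672 in other cells. Its groups did not overlap (log2 difference -0.86, SE 0.10, adjusted p = 0.155). Plakoglobin (Jup) had 396, 575, 619 and 958, against 1086, 1529, 1122 and 1273 (-1.03, SE 0.20, adjusted p = 0.256). The desmosomal cadherins Dsc3 and Dsg3 and plakophilin-1 (Pkp1) had differences of -0.71, -0.85 and -0.99. Dsg1b, the cadherin of differentiated layers, had no count in strongly basal cells and was present in 77 of 213 other cells, so that it was at least 1125-fold lower against a floor of 3 counts over all strongly basal cells. Dsg1b and Dsg1a are near-identical copies whose reads may be split between them, so neither level is certain.

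Wound and simple keratins, held in 1 list, also had negative differences. The list median was -2.95 over 5 tested genes, or -1.37 without the lowest 25% of cells. The gene at -2.95 is not among the keratins named here, and 3 of the 5 were lower in all 4 mice. Krt6a had 668, 2333, 1312 and 1088 scaled CPM in strongly basal cells of KO1, KO3, WT1 and WT2, against 3863, 7304, 5235 and 1751 in other cells (log2 difference -1.72, SE 0.31, adjusted p = 0.237). Krt16 had 123, 465, 91.5 and 391, against 2599, 6826, 4340.5 and 1132 (-3.90, SE 0.73, adjusted p = 0.246), and Krt6b had a difference of -3.12. All 3 were lower in every mouse and least so in WT2, whose other cells had the lowest levels. Krt6a, Krt6b and Krt16 have close copies and share reads with them. Krt17 had a difference of -0.17, with 2 mice in each direction.

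**Figure D4:**
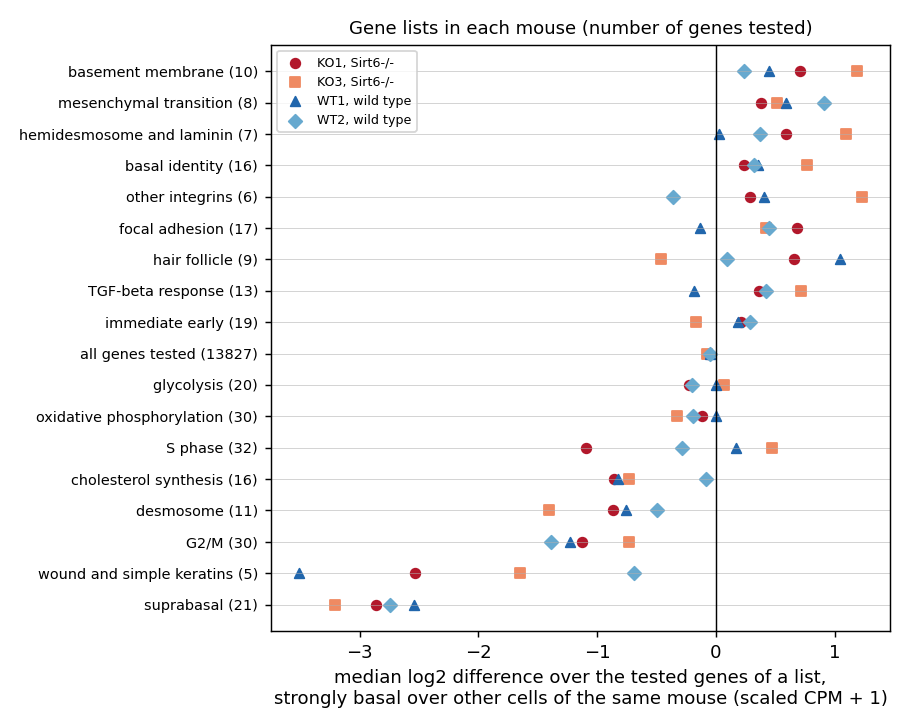
Median log2 difference of strongly basal over other cells (horizontal axis, scaled CPM + 1) over the tested genes of each list, with the number of genes in brackets and 1 symbol per mouse. Basement membrane genes lie above 0 in all 4 mice. Suprabasal, wound and simple keratin, G2/M and desmosome genes lie below 0, and all genes tested just below 0.

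Genes of the G2/M phase had lower values in strongly basal cells. Of 30 G2/M genes all were tested and all had a negative difference, with a median of -1.24. With other cells matched on detected genes, which were fewer in strongly basal cells, the median was -0.70. Of the 30 genes, 15 were lower at an unadjusted p under 0.05, against 6.27% of all genes tested. In all 4 mice 17 were lower, against 13.6%, and none passed. Cells with at least 15 of the 30 genes detected made up 11.1%, 42.9%, 23.5% and 13.6% of strongly basal cells in KO1, KO3, WT1 and WT2, against 32.7%, 67.5%, 53.8% and 21.2% of other cells. The share was lower in 4 of 4 mice, with a mean difference of -21.0 percentage points (SD 9.67, with the smallest p that the exact permutation test allows, 1 in 8). In all, 15 of 71 strongly basal cells and 87 of 213 other cells were of this kind. Cdc20, the activator of the anaphase-promoting complex, had 90.2, 295, 123 and 67.7 scaled CPM in strongly basal cells, against 202, 491, 286 and 182 in other cells. It was lower within every mouse, while KO3 stood highest in both groups (-1.14, SE 0.14, adjusted p = 0.155). The spindle protein Tacc3 had 57.0, 113, 64.4 and 37.5, against 113, 213, 147 and 80.6 (-1.05, SE 0.12, adjusted p = 0.155). Anillin (Anln) had a difference of -0.96. With matched other cells the differences were -1.04 for Cdc20, -0.62 for Tacc3 and -0.30 for Anln.

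DNA replication genes differed in direction between mice. Of 32 S phase genes all were tested, 24 had a negative difference and 8 a positive one, and the median was -0.20. The median by mouse was -1.09 in KO1, 0.47 in KO3, 0.17 in WT1 and -0.29 in WT2. The median number of S phase genes detected per cell was 12, 24, 22 and 9.5 in strongly basal cells of KO1, KO3, WT1 and WT2, against 19, 20.5, 20 and 10.5 in other cells (exact permutation p = 0.875). The repair exonuclease Exo1 had a difference of -1.07 and the thymidylate synthase gene Tyms one of -0.53.

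All cells of each mouse were also split into quartiles by score, lowest first, of which the top one holds the strongly basal cells. Mean log2(CPM + 1) of the suprabasal list was 4.45, 2.57, 2.00 and 1.56 across the quartiles (means of 4 mice). In KO1, WT1 and WT2 the largest step lay between the first and the second, and in KO3 between the second (4.53) and the third (2.65). Hemidesmosome and laminin genes stood highest in the upper 2 quartiles, at 4.61, 6.26, 7.41 and 7.37. Basement membrane genes stood at 0.805, 1.66, 2.10 and 2.39, and genes of the mesenchymal transition list at 0.388, 0.737, 0.914 and 1.16. G2/M genes had no steady trend, at 2.63, 2.90, 3.25 and 1.87, and the top quartile was the lowest in KO1, KO3, WT1 and WT2. Across cells the Pearson correlation of the score with the number of G2/M genes detected lay between -0.07 and 0.07 in the 4 mice, against -0.76 to -0.65 for suprabasal genes. Those correlations are over the 54 to 88 cells of a mouse and share its plates and depths.

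**Figure D5:**
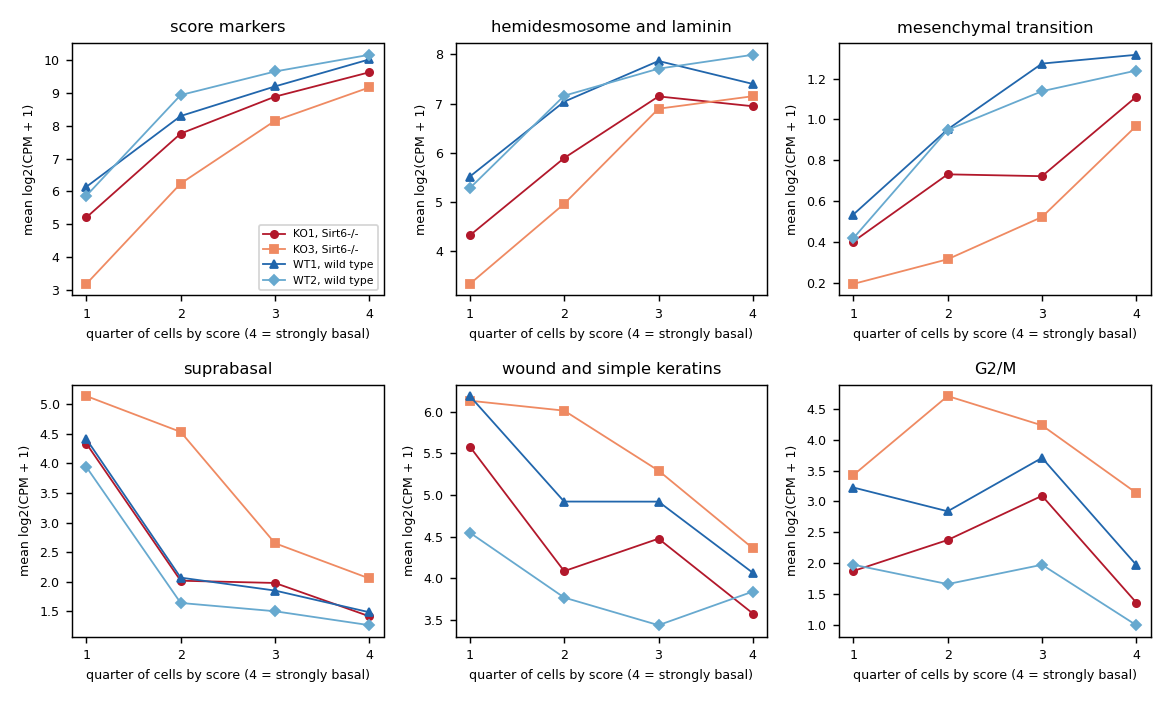
Mean log2(CPM + 1) of 6 gene lists (vertical axes, which differ and do not start at 0) across quartiles of the cells by basal score, where the last holds the strongly basal cells, with 1 line per mouse. The score markers rise by construction, suprabasal genes are highest in the first quartile, hemidesmosome and laminin genes are highest in the third or the last, and G2/M genes are lowest in the last quartile of all 4 mice.

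Markers used for tumour propagating and hair follicle stem cells differed among themselves. Of 13 listed genes 9 were tested, 6 had a positive difference, and the median was 0.57, with 0.65 in KO1, -0.47 in KO3, 1.04 in WT1 and 0.09 in WT2 on the log2(scaled CPM + 1) scale. Cd34, a surface glycoprotein of bulge stem cells that also served in the sort, had 381, 326, 586 and 177 scaled CPM in strongly basal cells of KO1, KO3, WT1 and WT2, against 192, 108, 243 and 138 in other cells. It was higher in every mouse and least so in WT2 (log2 difference 1.05, SE 0.21, adjusted p = 0.269). Cd34 counts were present in 63 of 71 strongly basal cells (88.7%, exact interval 79.0 to 95.01%), against 144 of 213 other cells (67.6%, 60.9 to 73.8%). These intervals pool the cells of 4 mice and cover counting error only. By mouse the shares were 94.4%, 100%, 100% and 68.2% of strongly basal cells in KO1, KO3, WT1 and WT2. In other cells they were 67.3%, 57.5%, 78.85% and 65.2%, so that WT2 showed little difference. Sox9, a stem cell transcription factor, had 213, 32.0, 191 and 277, against 106, 48.4, 82.8 and 249, and was lower in KO3 (0.45, SE 0.33, adjusted p = 0.698). The factor Pitx1 had a difference of -2.04 in 4 of 4 mice, and Tbx1 had 1.71, from counts in 19 strongly basal and 43 other cells.

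The mesenchymal transition list held matrix genes and transcription factors. Of 18 genes 8 were tested, 7 had a positive difference, and the median was 0.91. The unadjusted p was under 0.05 for 5 higher genes, against 3.67% of all genes tested. Tenascin C (Tnc), a matrix glycoprotein of wounds and tumours, had 68.5, 70.9, 298 and 532 scaled CPM in strongly basal cells of KO1, KO3, WT1 and WT2, against 40.3, 29.7, 121 and 226 in other cells. It was higher in 4 of 4 mice, but its strongly basal level in KO1 and KO3 was below the other-cell level of WT1 and WT2 (log2 difference 1.14, SE 0.13, adjusted p = 0.155). Tnc passed as the 1 gene called higher when genes under 10 CPM were left out. Snai2, a transcription factor of the basal layer and of migrating keratinocytes, had 180.2, 100.1, 115 and 97.4, against 70.9, 32.2, 55.6 and 73.5 (1.11, SE 0.23, adjusted p = 0.276). The matrix protein Postn had no counts in KO1 or KO3, and counts in 5 strongly basal cells and 3 other cells of WT1 and WT2, with 71% of them in 1 cell. Its fitted difference of 3.44 rests on those cells. The intermediate filament gene Vim had counts in 4 of 71 strongly basal cells and 6 of 213 other cells.

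The other genes named on the high side, which come next by p and did not pass, had adjusted p between 0.155 and 0.196 and were higher in all 4 mice. The kinase Sgk1 had 1205, 755, 1901 and 1931 scaled CPM in strongly basal cells of KO1, KO3, WT1 and WT2, against 769.8, 369, 872 and 1248 in other cells (log2 difference 0.86, SE 0.11). The desaturase Scd1 had 207, 129, 219 and 164, against 119, 81.5, 120.5 and 101 (0.76, SE 0.10). Scd1 levels in the 2 groups did not overlap, whereas those of Sgk1 did. Log2 differences were 1.76 for Rasgef1b, 1.39 for the channel gene Calhm2, 1.20 for the NF-kappa-B inhibitor Tnfaip3, 1.19 for the adhesion molecule Flrt2, 1.02 for the matrix protein Smoc2 and 0.90 for Irf2bpl.

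Signalling and stress lists had medians on both sides of 0. The TGF-beta response list had 13 genes tested, 10 positive, with a median of 0.47, or 0.23 without the lowest 25% of cells. On the log2(scaled CPM + 1) scale that median was 0.37 in KO1, 0.72 in KO3, -0.18 in WT1 and 0.42 in WT2. In all 4 mice 1 gene of the list was higher, against 7.54% of all genes tested, and 1 was lower, against 13.6%. Smad3 had a difference of 0.88, Pmepa1 one of 0.79 and Ltbp1 one of 0.47, but Smad3 and Pmepa1 were lower in strongly basal cells of WT1. Of 18 YAP and TAZ genes 15 were tested with a median of -0.01, and its 3 genes of smallest p, Ajuba, Ptpn14 and Tead1, had differences of 0.74, 1.41 and 1.24 in 4 of 4 mice. The 19 immediate early genes, which dissociation induces, had a median of 0.12, with Jun at 0.28, Egr1 at 0.33 and Fos at 0.12. The 11 heat shock genes had a median of -0.09, with Dnajb1 at 0.43, Dnaja1 at 0.25 and Hspd1 at -0.23. No gene of these 4 lists passed.

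Among metabolic lists, cholesterol synthesis had the lowest median. Of 16 genes 15 had a negative difference, with a median of -0.59 and none past the threshold. The unadjusted p was under 0.05 for 8 lower genes, against 6.27% of all genes tested. Lower in all 4 mice were 9, against 13.6%. Fdps had 63.8, 112, 82.6 and 51.2 scaled CPM in strongly basal cells of KO1, KO3, WT1 and WT2, against 129, 311, 169 and 94.3 in other cells (log2 difference -1.10, SE 0.14, adjusted p = 0.165). It was lower in every mouse, and squalene epoxidase (Sqle) had a difference of -1.20. With the lowest 25% by score left out of the other cells, the list median was -0.13. Glycolysis had a median of -0.11 over 20 genes. The glucose transporter Slc2a1 had 348, 407, 439.5 and 579 in strongly basal cells, against 268, 214, 322 and 377 in other cells (0.59, SE 0.12, adjusted p = 0.262), while lactate dehydrogenase Ldha had a difference of -0.29 and the lactate transporter Slc16a3 one of 0.68. Oxidative phosphorylation had a median of -0.16 over 30 genes, with Ndufa4 at -0.74, Cyc1 at -0.42 and Uqcrq at -0.31. Antioxidant genes had a median of -0.14 over 22 genes, with Gsto1 at -0.87 and the intestinal-type glutathione peroxidase Gpx2 at -0.73, each in 4 of 4 mice.

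Markers of other cell types were scarce in both groups. The 6 fibroblast genes summed to at most 2.55 scaled CPM in strongly basal cells and 2.50 in other cells of any mouse, with Col1a2 and Dcn at 0 everywhere, and the 7 immune genes to at most 8.85 and 27.0. The 6 endothelial genes summed to 3.09 to 19.2 in strongly basal cells and 2.63 to 10.6 in other cells, where Pecam1 had counts in 1 strongly basal cell and 7 other cells and Egfl7 had a difference of 0.14. The 5 melanocyte genes summed to at most 8.99 and 6.07, with Pmel counts in 6 strongly basal and 15 other cells, and the muscle and adipocyte genes to at most 0.392 and 56.2, of which Fabp4 was nearly all (-6.72). Acta2 had 61.1, 43.0, 21.7 and 21.6 in strongly basal cells of KO1, KO3, WT1 and WT2, against 7.25, 11.5, 32.0 and 22.9 in other cells, and Myh11 and other smooth muscle genes summed with it to at most 61.1. The part of these cells in the results was not tested.

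The difference between strongly basal and other cells was set against the genotype label in a test of their interaction. None of 16120 genes passed in edgeR (0.0%), 551 had an unadjusted p under 0.05, and DESeq2 called 50 genes positive and 41 negative. Desmoplakin (Dsp), which links desmosomes to keratins, had 380.5 and 483 scaled CPM in strongly basal cells of KO1 and KO3, against 601 and 865 in their other cells. In WT1 and WT2 it had 710.2 and 928 in strongly basal cells, against 714 and 839 in other cells. It was lower in strongly basal cells of both mice labelled Sirt6-/-, nearly level in WT1 and higher in WT2, with an interaction of -0.81 (SE 0.16, adjusted p = 1). Ripk4, a kinase of keratinocyte differentiation, had 128 and 117 in strongly basal cells of KO1 and KO3, against 271 and 224 in other cells, and 265 and 407 in those of WT1 and WT2, against 297 and 466 (-0.82, SE 0.18, adjusted p = 1). The other genes with the smallest p were Nuak2, Tecpr1, Cspg4, Chpf and Susd6, with a positive interaction, and Epc1, Stard4 and Kank1, with a negative one, all at an adjusted p of 1.

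Strongly basal cells of the mice labelled Sirt6-/- were also compared directly with those of WT mice, 2 mice against 2. No gene of 12948 passed in edgeR (0.0%), 643 had an unadjusted p under 0.05, and DESeq2 called 57 higher and 89 lower. Levels did not overlap between the labels for 2187 genes higher in Sirt6-/- (16.9%) and 2244 lower (17.3%). Of the 8 score markers 6 were lower in both Sirt6-/- mice without overlap, and Krt15 and Itga3 overlapped. These markers chose the cells within each mouse, so this is a description: Krt5 had 5062 and 5095 scaled CPM in strongly basal cells of KO1 and KO3, against 6833 and 9572 in those of WT1 and WT2.

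The genes of smallest p that were higher in strongly basal cells of the Sirt6-/- mice began with 2 copies of Tdg, the thymine DNA glycosylase gene. Tdg-ps had 49.7 and 46.9 scaled CPM in KO1 and KO3, against 2.46 and 1.51 in WT1 and WT2 (log2 difference 4.60, SE 0.61, adjusted p = 0.756), and Gm9855 had 42.6 and 38.5, against 2.77 and 3.53. Reads of such copies cannot be told apart from those of Tdg with certainty. The same gap stood in the other cells, where Tdg-ps had 62.0 and 60.0 in KO1 and KO3, against 3.91 and 2.92 in WT1 and WT2. Podoplanin (Pdpn), a surface glycoprotein of basal and invading cells, had 156 and 159.5 in strongly basal cells of KO1 and KO3, against 50.5 and 60.3 in those of WT1 and WT2 (1.51, SE 0.27, adjusted p = 0.756). In other cells Pdpn was at 75.7 and 7.51 in KO1 and KO3, against 54.6 and 75.1 in WT1 and WT2. Pbrm1 and Htatip2 had differences of 2.00 and 1.30.

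On the lower side, Tnc had 68.5 and 70.9 scaled CPM in strongly basal cells of KO1 and KO3, against 298 and 532 in those of WT1 and WT2 (log2 difference -2.58, SE 0.37, adjusted p = 0.756). Caveolin-1 (Cav1), the coat protein of caveolae, had 164 and 165, against 436 and 462 (-1.45, SE 0.22, adjusted p = 0.756). Txnip, an inhibitor of thioredoxin and of glucose uptake, had 47.2 and 22.8, against 164 and 191 (-2.35, SE 0.45, adjusted p = 0.756). For all 3 the labels did not overlap. In the other cells Tnc was at 40.3 and 29.7 in KO1 and KO3, against 121 and 226 in WT1 and WT2. Cav1 was at 116.4 and 36.6 in the same other cells, against 292.97 and 326.6. The gaps of Tnc and Cav1 were therefore not limited to strongly basal cells. Txnip overlapped between the labels in other cells, with 36.7 in KO1 and 13.8 in WT1. In strongly basal cells Epc1 and Fuk had differences of -4.15 and -2.69. By list, 12 of 19 immediate early genes were lower without overlap in the Sirt6-/- mice (median -0.90). Summed over that list, strongly basal cells had 13834 and 11412 scaled CPM in KO1 and KO3, against 14717 in WT1 and 32417.5 in WT2. Its mean log2(CPM + 1) per cell was 6.85 and 6.68 in KO1 and KO3, against 6.75 in WT1 and 8.29 in WT2. WT2 thus stood apart, and WT1 lay near the Sirt6-/- mice. Higher without overlap were 11 of 22 antioxidant genes (median 0.54), and lower without overlap were 5 of 8 mesenchymal transition genes (median -1.58). The list medians stood at -0.36 for hemidesmosome and laminin genes and -0.43 for basement membrane genes, against -0.01 for all genes. In these lists 3 of 7 and 3 of 10 were lower without overlap. Beside all such counts by list, 16.9% of all genes were higher and 17.3% lower without overlap. Of 30 G2/M genes 27 had a positive difference and 10 were higher without overlap (median 0.86). That difference was not shared by both Sirt6-/- mice. Summed over the list, strongly basal cells had 850 and 2275 scaled CPM in KO1 and KO3, against 1043 and 628 in WT1 and WT2. Cells with at least 15 of the genes detected made up 11.1% and 42.9% in KO1 and KO3, against 23.5% and 13.6%.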

How the data were processed

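Expected counts per gene and cell were deposited by the authors. STAR and RSEM, with mm10 and GRCm38, are listed per the submitters' processing notes; versions and strand setting are not stated there. Of the values above 0, 21.5% were not whole, and sums were rounded to whole numbers before testing. Gene symbols came from GENCODE M21 (GRCm38), which matched 54156 of 54247 gene IDs; the other 91 held 0.000107% of counts.

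Members and gene lists were chosen with earlier results of these data known. Cells were scored on log2(CPM + 1) and split within each mouse; no doublet caller was run. Counts were summed per mouse and set (18318472 to 69817362 counts per sum), scaled by TMM, filtered with filterByExpr and tested two-sided with edgeR 4.0.16 (quasi-likelihood, Benjamini-Hochberg) in R 4.3.3. Mouse was the block because both sums come from 1 animal. Score markers were left out of all counts of calls. Mice are the replicates, and 4 pairs leave 3 residual degrees of freedom. With mouse as the block, p-values measure how the difference within a mouse varies over these animals. In the comparison of genotypes, which has no block, they measure the spread between animals. Reads without molecular identifiers are not independent molecules. Alternatives used DESeq2 1.42.0 and limma 3.58.1, other filters, scalings, memberships and comparison cells, and each mouse left out. Single values were tested by exact sign-flip permutation.

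Named genes were the score markers; the 10 genes per direction with the largest difference among calls at 20 scaled CPM or more and in at least 20 cells, filled by smallest p; and 2 to 4 genes of smallest p per list. Beyond that rule, Trex2, Krt1, Krt10, Krt14, Krt17, Lama5, Lamb3, Jup and other list members were added for their roles, with values known. Genes on shared or antisense reads cannot be told apart.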

Additional observations from a re-analysis of the deposited data

Results flagged for a closer look

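In groups of 4 mice, a mouse was marked when its value lay far from the other 3 by Dixon's criterion, which chance meets in about 1 of 20 groups. Of the within-mouse log2 differences of named genes, 4 were marked. The named genes number far more than 20, so chance alone could give that many marks. Tnc was less raised in strongly basal cells of KO1 (0.75) than in the others (1.23 to 1.30). Zfp750 differed least in KO1, at -3.30, against -5.41 to -5.17 in the other mice. Perp differed most in KO3, at -1.21, against -0.76 to -0.72. Uqcrq differed least in WT1, at -0.22, against -0.34 to -0.32. Among cell measures, the ribosomal RNA share of strongly basal minus other cells was -0.0406 percentage points in KO3, against 0.285 to 0.324 in the other mice.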

How the results depend on the processing

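The count of genes called depended on the test and on the comparison cells. In strongly basal against other cells, DESeq2 called 327 higher and 543 lower, limma on cell means 34 and 50, a filter at 10 CPM 1 and 19, and the lowest 25% by score as comparison 29 and 65. The lower calls numbered 21 with the top 50% of cells as members, 1 with other cells matched on detected genes, and 0 with the top 10%, with markers weighted equally and, chosen after seeing the data, without the lowest 25% of cells. Leaving out each mouse gave 0 to 1. With no replicate block 1 gene was called lower, Nectin4; the pairing comes from the shared animal. All 6 called genes were lower under every alternative that tested them, 19 for each but Trex2, which had 17. DESeq2 called 50 and 41 genes in the interaction and 57 and 89 between genotypes in strongly basal cells; edgeR and limma called 0 under all other settings.

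Signs turned for some genes that had not passed. With the top 10% they were Tnc (-0.18), Hspg2 (-0.20), Itga5 (-0.84), Itgb8 (-6.60), Tbx1 (-1.17), Tead1 (-0.72) and Egfl7 (-6.76). With the depth trend removed from the score they were Itga5 (-0.69), Jun (-0.018), Fos (-0.13), Anln (0.18), Slbp (0.079) and Egfl7 (-1.03). With the top 50% they were Anln (0.10), Tyms (0.0037) and Pmel (0.76). Slbp turned with matched cells (0.013) and the lowest 25% (0.048), Itgb8 with equal weights (-0.59), and Pecam1 (1.06) and Pmel (0.055) without the block. Egfl7 lay between -0.35 and 0.59 with a mouse left out, turning without WT1 (-0.01) and without WT2, and turned without the minor plates (-0.31) and with limma (-0.24), and the Cspg4 interaction with limma (-0.71). The cause was not tested. Depth limits genes of few counts, and 3 residual degrees of freedom limit every call.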

Other observations

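Several ligands, receptors and matrix genes outside the lists were read in strongly basal cells after their values were seen, and are given without a test. The Wnt ligand Wnt3a had 43.9, 57.2, 49.1 and 81.9 scaled CPM in strongly basal cells of KO1, KO3, WT1 and WT2, against 9.49, 5.02, 14.2 and 24.5 in other cells. Counts were present in 35 of 71 strongly basal cells (49.3%, exact 95% interval 37.2 to 61.4%) and 46 of 213 other cells (21.6%, 16.3 to 27.7%). These intervals pool the cells of 4 mice and cover counting error only. By mouse the shares were 38.9%, 42.9%, 52.9% and 59.1% of strongly basal cells in KO1, KO3, WT1 and WT2. In other cells they were 18.2%, 12.5%, 30.8% and 22.7%. The Notch-related membrane protein Dlk2 had 34.1, 39.0, 43.1 and 42.9, against 13.9, 9.77, 15.2 and 14.7. Neither gene's groups overlapped.

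Thrombospondin 2 (Thbs2) had 135, 116, 219 and 469.6 scaled CPM in strongly basal cells of KO1, KO3, WT1 and WT2, against 58.5, 19.0, 115 and 225 in other cells. The neurotrophin receptor Ngfr had 209, 79.5, 189.9 and 80.5, against 74.0, 4.84, 81.6 and 50.5. The secreted BMP and Wnt antagonist Sostdc1 had 464, 297, 414 and 544, against 186, 68.7, 147 and 486. All 3 were higher in every mouse and overlapped between mice. The adhesion receptor Icam1 had 162.5, 96.4, 131 and 379, against 46.7, 39.6, 95.4 and 120.4.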
